A study of Mus musculus with 6 samples.

Results

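The aminoacyl-tRNA synthetases, the enzymes that join each amino acid to its transfer RNA, were followed with their scaffold proteins in islets of mice on 2 diets. The genes were taken by name: every name of a capital letter followed by ARS, ARS1 or ARS2, with Eprs, Farsa, Farsb, Tarsl2, Aimp1, Aimp2 and Eef1e1 added and Lars2 left out. This gave 40 of the 48321 gene names in the table, 24 of them cytosolic (21 enzymes and 3 scaffold proteins) and 16 mitochondrial. Names of the form letter-ARS2 were taken as mitochondrial. Tarsl2 and Aimp2 also end in 2 but encode cytosolic proteins and were kept with the cytosolic genes. RNA came from isolated pancreatic islets of C57BL6 mice, titled WT, with 3 samples of normal chow and 3 of high-fat diet. The high-fat diet supplied 60 percent of calories as fat and was given for 4 months from the age of 3 months, and no age or feeding time is given for the chow mice. The column of chow replicate 2 was the arithmetic mean of chow replicates 1 and 3 for all 48321 names, so it was left out, which leaves n = 2 for chow and n = 3 for the high-fat diet. Whether the samples are separate animals is not in the labels, and the p-values rest on a spread between libraries that may be technical only.

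Cytosolic synthetases charge the transfer RNAs used by the ribosomes that make, in beta cells, large amounts of proinsulin. A separate set of nuclear genes encodes the synthetases that are imported into mitochondria and serve the translation of the mitochondrial genome. Kars and Gars are exceptions, since each supplies both compartments from 1 gene, and Eprs encodes a fused enzyme for glutamate and proline. In the cytosol several synthetases are held in a multi-synthetase complex by the scaffold proteins Aimp1, Aimp2 and Eef1e1. Many cytosolic synthetase genes are known targets of ATF4, the transcription factor of the integrated stress response, which also raises amino acid transport and synthesis.

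Several properties of the libraries ran with the diets. The values were read as CPM (read counts scaled to a library total), whose spacing implied 18.8 to 35.1 M reads per library. Summed over the gene names they were not equal, at 841705 and 674482 CPM in chow replicates 1 and 3. The sums were 963615, 832416 and 879301 CPM in high-fat replicates 1, 2 and 3. Shares of all CPM are shares of these sums, and the main fit used the CPM as deposited. Ins1, Ins2, Gcg, Sst and Iapp were all abundant in each library, with Ins2 between 28777 and 45461 CPM and Gcg at 2332 CPM in chow replicate 3 and between 10102 and 11992 CPM in the others. Rn7sk, a small RNA without a poly(A) tail, was at 6.27 and 13.3 CPM in chow and at 3192 to 3935 CPM with high fat. Rpph1 split in the same way, at 0.425 and 0.081 CPM in chow and at 3294 to 4082 CPM with high fat. The sample titles begin with BS for all chow samples and with RA for all high-fat samples, and what these letters stand for is not given. No difference in library preparation is given in the labels. Whatever goes with these differences cannot be told apart from diet. The 23 markers of acinar cells, the enzyme-secreting cells of the exocrine pancreas, were all detected and made up, as a share of all CPM, 20.9% of chow replicate 1, 8.33% of chow replicate 3, and 10.3%, 1.40% and 4.13% of high-fat replicates 1, 2 and 3. Summed fibroblast markers ranged from 119 to 217 CPM in chow and from 36.2 to 69.3 CPM with high fat, summed duct markers from 184 to 258 CPM and from 149 to 181 CPM, and summed endothelial markers from 364 to 433 CPM and from 291 to 356 CPM. The duct markers did not move alike. Krt7 and Spp1 were lower in every high-fat library, and Krt19, Cftr and Muc1 overlapped. Sox9 went the other way, at 8.17 and 3.59 CPM in chow against 20.2, 10.5 and 14.1 CPM with high fat. Summed macrophage markers overlapped. Summed islet endocrine markers ranged from 74371 to 93260.5 CPM in chow and from 104922 to 113333 CPM with high fat. As a share of all CPM they overlapped, at 8.84% and 13.8% in chow against 10.9%, 13.6% and 12.1% with high fat. The part of these differences in the results below was not tested, apart from a fit with the acinar markers as a covariate. In whole islets, fewer cells of a type and less RNA per cell cannot be told apart.

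Promoters of 5 synthetase genes carried the letters TGATGNAA, the core to which ATF4 and its C/EBP partners are known to bind, on either strand of the promoter window from 250 bases before to 50 bases after the annotated start. The windows came from RefSeq (build GRCm38.p6), which held one for 30 of the 40 genes. The 30 bases around the match are shown for 4 of them because the genes below are grouped by this known regulation, with the match in capitals and the sequence given in the direction of the gene.
Gars: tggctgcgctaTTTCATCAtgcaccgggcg
Iars: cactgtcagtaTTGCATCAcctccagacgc
Tars: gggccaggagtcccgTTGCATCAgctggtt
Yars: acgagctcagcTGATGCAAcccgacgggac
The coordinates are those of the whole printed windows: chr6:55037960-55037989 (plus strand) for Gars, chr13:49682126-49682155 (plus strand) for Iars, chr15:11399659-11399688 (minus strand) for Tars and chr4:129189895-129189924 (plus strand) for Yars. The match itself began 30 bases before the start in Gars and 15 bases before it in Tars, and lay in the first transcribed bases in Iars and Yars. The 5 genes were all among the 8 known ATF4 targets with a window. The letters were in none of the 6 other cytosolic synthetases, the 3 scaffold genes and the 13 mitochondrial genes with a window, and in 4.51% of all 27025 genes with one. A match is a description of the letters only.

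Few synthetase genes differed between the diets. Of the 40 genes, all of which passed the filter of a mean of at least 0.5 CPM, 1 was higher (Ears2) and 1 lower (Aimp1) on the high-fat diet by limma at a Benjamini-Hochberg adjusted p below 0.05 over all 16939 genes tested. That is 2.5% in each direction, where 14.9% of all tested genes were called higher and 8.78% lower (23.7% together). At an unadjusted p below 0.05 there were 8 of the 40, against 38.8% of all tested genes. The high-fat libraries lay wholly above both chow libraries for 11 of the 40 genes and wholly below for 4, against 32.8% and 22.5% of all tested genes (55.4% together). The median log2 fold change was 0.03 for the 24 cytosolic genes and 0.14 for the 16 mitochondrial genes, against 0.05 for all tested genes. With the acinar markers as a covariate the order turned, with medians of 0.096 and 0.068. With median-ratio scaling 1 was higher and 2 lower (2118 and 1874 of all tested genes, where it was 2524 and 1487), and the cytosolic median was -0.04. With library sizes that left out acinar and insulin genes 0 were higher and 12 lower (811 and 4774 of all tested genes). The median of all tested genes moved to -0.28. Relative to it the cytosolic and mitochondrial medians were -0.07 and 0.07, where they had been -0.03 and 0.09. These library sizes were sums of the deposited CPM, so the unequal sums of the libraries also enter this setting. The part of the genes left out was not separated from the part of the unequal sums. The log2 fold change was within 0.5 of zero for 38 of the 40 genes (95%, against 77.0% of all tested genes). For 28 of them (70%, against 34.5% of all tested genes) limma's 95% interval stayed within 0.5 of zero in both directions.

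**Figure D1:**
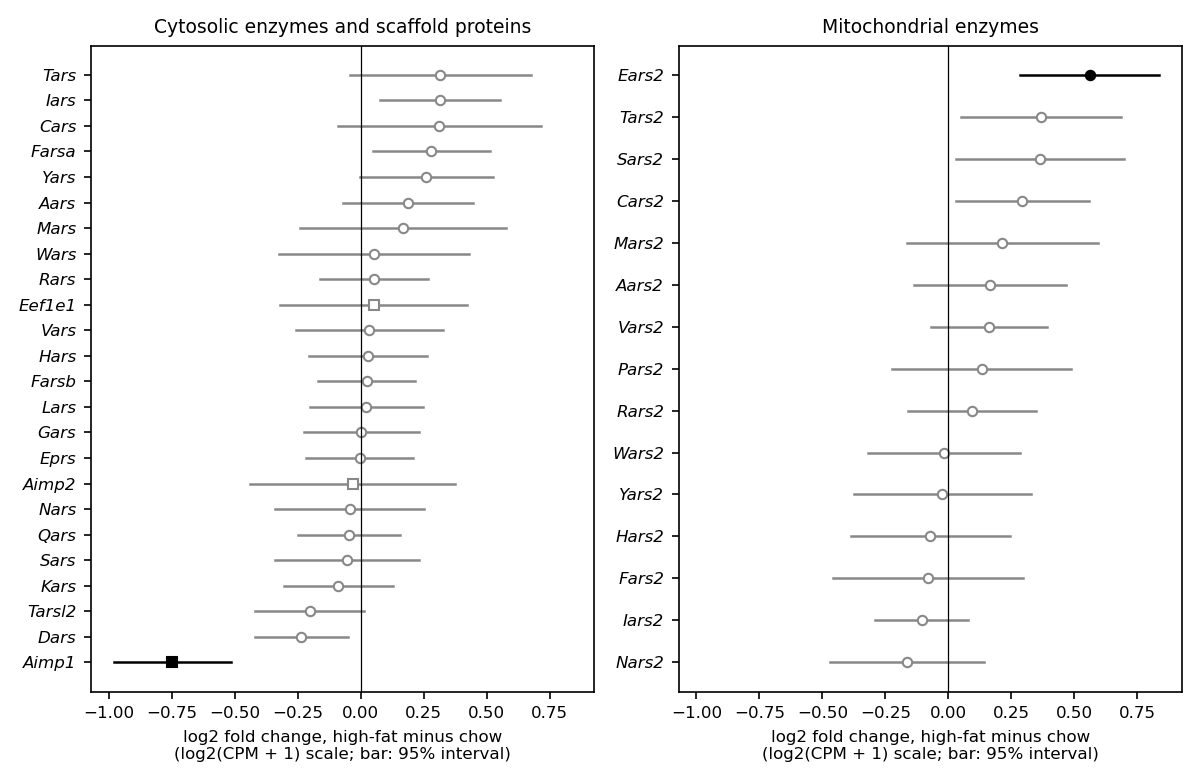
Log2 fold change of each gene (high-fat minus chow, on the log2(CPM + 1) scale) with limma's 95% interval, cytosolic genes on the left (squares for the scaffold proteins) and 15 mitochondrial genes on the right. Filled black symbols mark adjusted p below 0.05: Aimp1 at -0.75 and Ears2 at 0.56; the intervals of most other genes cross 0.

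Aimp1, the scaffold protein that holds the arginyl-tRNA synthetase in the complex and is also known as a secreted cytokine precursor, fell on the high-fat diet. Its level was 21.5 CPM in chow replicate 1, 19.1 CPM in chow replicate 3 and 11.7, 11.7 and 11.7 CPM with high fat. The high-fat values were nearly identical and lay well below both chow values, with implied counts of 276 to 472 reads per library. The mean went from 20.3 ± 1.70 CPM (SD, n = 2) to 11.7 ± 0.0476 CPM (SD, n = 3), a log2 fold change of -0.75 ± 0.10 (SE; 95% interval -0.98 to -0.51, limma adjusted p = 0.0034). It was called lower in 16 of 16 other settings, with log2 fold changes from -1.12 to -0.67.

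Neither of the other scaffold genes was called. Aimp2, which binds the lysyl-tRNA synthetase, was at 3.08 and 3.95 CPM in chow against 3.31, 2.95 and 4.00 CPM with high fat. Eef1e1, a scaffold related to an elongation factor subunit, was at 4.89 and 3.77 CPM and at 4.77, 4.71 and 4.04 CPM. The diets overlapped for both genes, and the limma 95% intervals ran from -0.44 to 0.37 for Aimp2 and from -0.32 to 0.42 for Eef1e1. Of the 11 genes of the complex as a whole, 0 were called higher and 1 (Aimp1) lower by limma (14.9% and 8.78% of all tested genes), with 3 at an unadjusted p below 0.05 (38.8% of all tested genes). Their median log2 fold change was -0.004. The summed level of the 11 genes was 428 and 396 CPM in chow against 423, 386 and 421 CPM with high fat, so in CPM it overlapped between the diets. As a share of all summed CPM it was 0.0508% and 0.0587% against 0.0439%, 0.0464% and 0.0479%, without overlap. This was not particular to the complex. The share of all 40 genes did not overlap either, at 0.154% and 0.176% in chow against 0.137%, 0.142% and 0.153% with high fat. The same held for the 24 cytosolic genes and for the 10 cytosolic enzymes that are not known ATF4 targets. The shares of the 11 known targets and of the 16 mitochondrial genes overlapped.

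Among the mitochondrial enzymes Ears2, which charges mitochondrial glutamate transfer RNA, rose. It was at 7.82 and 9.44 CPM in chow against 12.7, 13.4 and 13.4 CPM with high fat, with no overlap. The means were 8.63 ± 1.15 CPM (SD, n = 2) and 13.2 ± 0.395 CPM (SD, n = 3), a log2 fold change of 0.56 ± 0.12 (SE; 95% interval 0.29 to 0.84, limma adjusted p = 0.0171). The call ended without chow replicate 1 (limma adjusted p = 0.0677), without high-fat replicate 2 (0.0641) or 3 (0.0618), with the acinar markers as a covariate (0.0779), and with library sizes that left out acinar and insulin genes (0.363, log2 fold change 0.20). Ears2 was called in the other 11 of 16 settings.

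**Figure D2:**
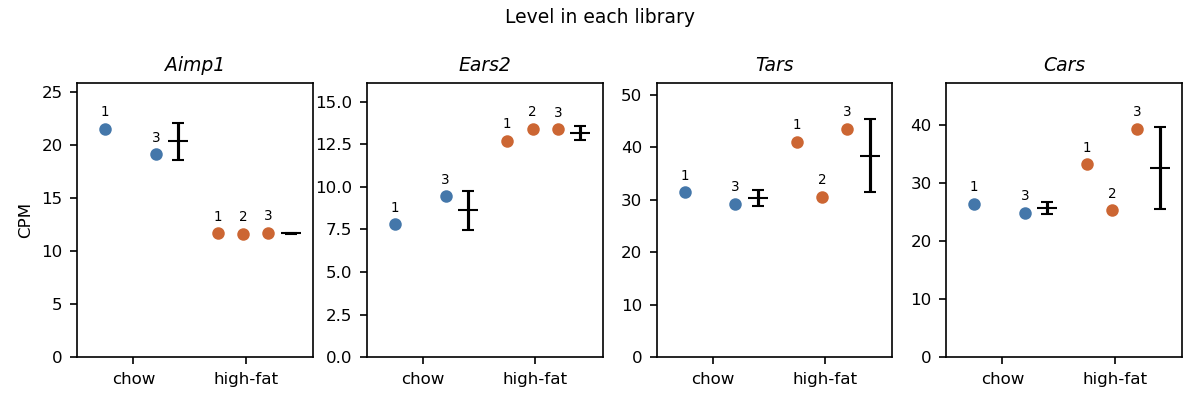
CPM of Aimp1, Ears2, Tars and Cars in each library (dots, labelled by replicate number), with the mean and SD of each diet as a bar (n = 2 chow, n = 3 high-fat). The diets separate for Aimp1 and Ears2, and high-fat replicate 2 lies near the chow libraries for Tars and Cars.

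The 15 other mitochondrial genes did not pass the threshold. Tars2, the threonine enzyme, was at 9.31 and 8.90 CPM in chow against 10.4, 12.4 and 13.6 CPM with high fat (log2 fold change 0.37 ± 0.13, SE; limma adjusted p = 0.0897). Cars2, the cysteine enzyme, was at 7.30 and 7.64 CPM and at 8.98, 9.80 and 9.36 CPM (0.29 ± 0.11, 0.0993). Sars2, the serine enzyme, was at 2.51 and 2.51 CPM and at 3.38, 3.83 and 3.36 CPM (0.36 ± 0.14, 0.104), on 47.2 to 134 implied reads per library. In these 3 genes, and in Vars2 and Aars2, each high-fat library was above both chow libraries, as in Ears2, and in all 7 of 16 mitochondrial genes did not overlap in this direction (32.8% of all tested genes). Iars2, the isoleucine enzyme, was the 1 mitochondrial gene with all high-fat libraries below chow, at 49.9 and 51.4 CPM against 44.9, 47.7 and 48.4 CPM (-0.11 ± 0.08, 0.354). Mars2, Pars2, Rars2, Hars2, Fars2, Nars2, Yars2 and Wars2 overlapped between the diets, with log2 fold changes from -0.17 (Nars2) to 0.21 (Mars2). For Fars2 the chow values, 17.1 and 11.6 CPM, enclosed its 3 high-fat values of 12.7 to 14.0 CPM.

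No gene among the 21 cytosolic enzymes was called by limma (23.7% of all tested genes), and 3 were at an unadjusted p below 0.05 (38.8% of all tested genes). Iars, the isoleucine enzyme of the complex, came nearest, at 38.3 and 39.7 CPM in chow against 49.9, 43.6 and 53.1 CPM with high fat (log2 fold change 0.31 ± 0.10, SE; limma adjusted p = 0.0625). Farsa, the catalytic subunit for phenylalanine, was at 12.4 and 12.7 CPM and at 16.1, 14.6 and 15.9 CPM (0.28 ± 0.10, 0.0787). Its partner subunit Farsb was at 20.9 and 21.4 CPM and at 21.4, 21.3 and 21.8 CPM (0.02 ± 0.08, 0.852). The difference between the subunits was not tested.

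Dars, the aspartate enzyme, lay on the other side, at 37.6 and 35.9 CPM in chow against 30.2, 31.2 and 31.8 CPM with high fat (-0.24 ± 0.08, limma adjusted p = 0.069). It was called lower with median-ratio scaling (-0.30, 0.0316) and by the trimmed mean of M values (-0.30, 0.0322). Tarsl2, the additional cytosolic threonine enzyme, was at 19.4 and 18.7 CPM and at 17.3, 15.9 and 16.1 CPM (-0.20 ± 0.09, 0.152), whereas Tars had values of 31.4 and 29.2 CPM and of 41.1, 30.6 and 43.6 CPM (0.32 ± 0.15, 0.171). Yars, the tyrosine enzyme, and Aars, the alanine enzyme, had all high-fat libraries above chow without passing the threshold (0.26 ± 0.11 and 0.19 ± 0.11, limma adjusted p = 0.132 and 0.25). For the 4 cytosolic enzymes with the highest CPM the limma intervals ran from -0.34 to 0.23 for Sars, from -0.21 to 0.21 for Eprs, from -0.23 to 0.23 for Gars and from -0.07 to 0.45 for Aars. Cars, Hars, Kars, Lars, Mars, Nars, Qars, Rars, Sars, Vars and Wars, like Eprs and Gars, overlapped between the diets, with log2 fold changes from -0.09 (Kars) to 0.31 (Cars).

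The enzymes of class I and class II, which differ in the fold of their catalytic domain, were also counted apart. Of 9 cytosolic class I genes 0 were called by limma (1 at an unadjusted p below 0.05), and of 11 cytosolic class II genes 0 (2 at an unadjusted p below 0.05), against 23.7% and 38.8% of all tested genes. The medians were 0.05 and 0.002. The medians of the 8 class I and 8 class II mitochondrial genes were 0.13 and 0.14.

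The known ATF4 targets among the cytosolic enzymes were lowest in the same high-fat library. This pattern was chosen after the values were seen. All 11 known targets (Aars, Cars, Eprs, Gars, Iars, Mars, Nars, Sars, Tars, Wars and Yars) were lowest, among the high-fat libraries, in replicate 2. The same library was lowest for 6 of the 10 other cytosolic enzymes, 3 of the 16 mitochondrial genes and 29.4% of all tested genes. Cars, the cysteine enzyme, was at 33.3, 25.3 and 39.4 CPM in high-fat replicates 1, 2 and 3, beside 26.4 and 24.96 CPM in chow. Mars, the methionine enzyme, was at 49.9, 34.9 and 48.1 CPM, beside 43.6 and 34.6 CPM in chow. In both genes high-fat replicate 2 lay between the chow values, as it did for Tars, and the other high-fat libraries lay above both chow values. The mean log2 level of high-fat replicates 1 and 3 exceeded that of replicate 2 by a median of 0.28 in the 11 known targets and by 0.06 in the 10 other cytosolic enzymes. The mitochondrial genes went the other way, by -0.07, and the median of all tested genes was -0.01. Without high-fat replicate 2, Tars was called higher (0.47, limma adjusted p = 0.0415) and the Ears2 call ended, so that 1 gene was again higher.

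**Figure D3:**
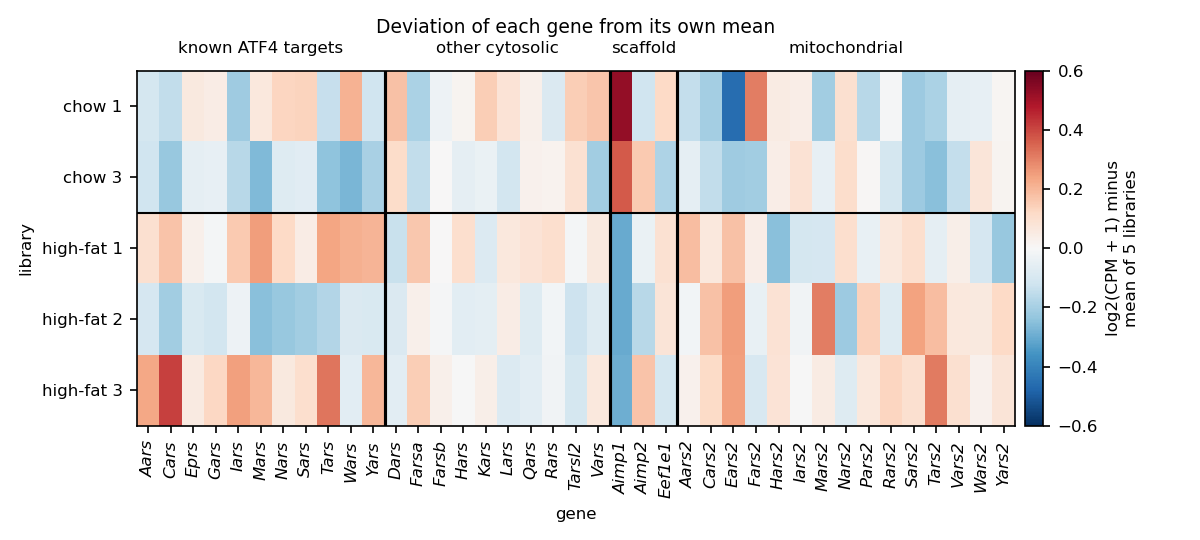
Log2(CPM + 1) of each gene in each library minus the gene's mean over the 5 libraries (red above, blue below), with the genes grouped by role (15 of the mitochondrial genes). High-fat replicate 2 is below replicates 1 and 3 for all 11 known ATF4 targets; Aimp1 and Ears2 differ between the chow and high-fat rows.

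The summed level of the 11 known targets was 776 and 699 CPM in the chow replicates, against 820, 692 and 842 CPM in high-fat replicates 1, 2 and 3. In CPM, high-fat replicate 2 was thus the lowest of the 5 libraries and chow replicate 3 the next. As a share of all summed CPM the 11 genes were at 0.0922% and 0.104% in chow replicates 1 and 3. They were at 0.0851%, 0.0831% and 0.0958% in high-fat replicates 1, 2 and 3. By share, chow replicate 3 was thus the highest library and high-fat replicate 2 still the lowest. In CPM, chow replicate 3 was below chow replicate 1 in 10 of the 11 genes, Iars being the other. It was also below in 7 of the 10 other cytosolic enzymes and in 25 of the 31 other stress-response genes, against 41.4% of all tested genes. Within each diet the acinar markers were lowest in the library where the CPM of these synthetases was lowest. They were at 1.40% of the summed CPM in high-fat replicate 2 against 10.3% and 4.13%, and at 8.33% in chow replicate 3 against 20.9%. With the synthetases also taken as a share, this held for high-fat replicate 2 and not for chow replicate 3. The 2 quantities did not rank the libraries alike across the diets. Chow replicate 1 had the most acinar transcripts and fewer CPM of these synthetases than high-fat replicates 1 and 3. The part of acinar transcripts in this pattern was not tested. High-fat replicate 2 was also the deepest library, at 35.1 M implied reads. The 16 mitochondrial genes summed to 176 and 174 CPM in chow against 177, 188 and 189.7 CPM with high fat. In CPM each high-fat sum was above chow, replicate 1 by less than the chow libraries differed from each other. As a share of all summed CPM the diets overlapped, at 0.0210% and 0.0259% in chow against 0.0184%, 0.0225% and 0.0216% with high fat.

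**Figure D4:**
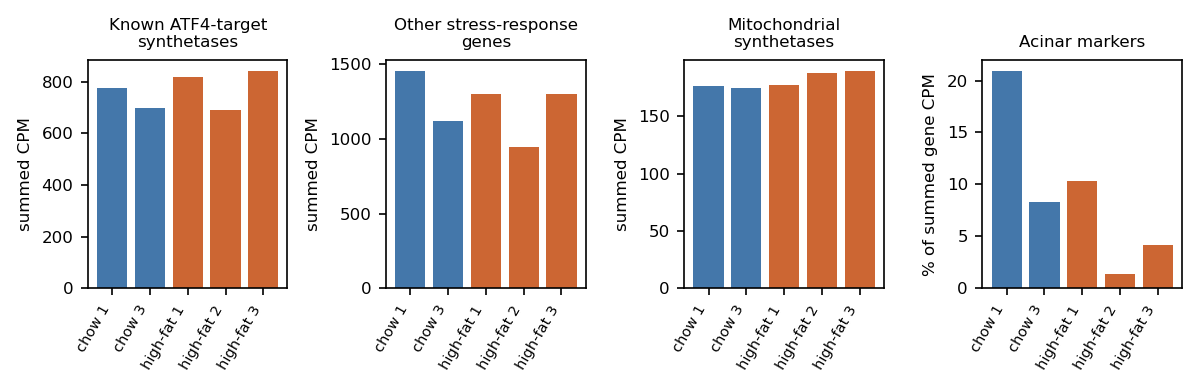
Summed CPM of the 11 known ATF4-target synthetases, the 31 other stress-response genes and the 16 mitochondrial synthetases, and the acinar markers as a percentage of the summed gene CPM, by library (bars, 1 value each, no error). High-fat replicate 2 is lowest of the high-fat libraries in the first, second and last panels and not in the mitochondrial panel.

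Other genes of the integrated stress response did not move in 1 direction between the diets. Of 31 tested, 3 were called higher and 3 lower by limma (14.9% and 8.78% of all tested genes), with a median log2 fold change of -0.05. Leaving out high-fat replicate 1, 2 or 3 changed these counts to 0 and 1, 1 and 1, or 0 and 2. The shares of all tested genes were then 8.50% and 4.66%, 6.91% and 4.04%, or 7.21% and 4.40%. Leaving out a chow library leaves 1 in that diet, so those counts are not given for this list. The counts were 0 and 1 with no filter (2.74% and 1.46% of all tested genes) and 3 and 1 with the acinar covariate (6.92% and 4.49%). With library sizes that left out acinar and insulin genes they were 0 and 9 (4.79% and 28.2%). Ddit3, the transcription factor CHOP, fell from 18.7 and 18.2 CPM in chow to 9.25, 8.26 and 11.2 CPM on the high-fat diet (-0.89 ± 0.14, SE; adjusted p = 0.00589). Its gene overlaps Mars on the opposite strand, over 1.99% of the Mars exons. Vldlr, a lipoprotein receptor, fell from 61.7 and 61.4 CPM to 41.4, 37.5 and 48.6 CPM (-0.53 ± 0.12, adjusted p = 0.0193). Ppp1r15a, a phosphatase subunit that ends the response, rose from 24.8 and 22.5 CPM to 32.3, 30.1 and 31.5 CPM (0.39 ± 0.09, adjusted p = 0.0214), and Cebpb, a transcription factor, rose from 13.3 and 8.72 CPM to 17.5, 17.7 and 23.1 CPM (0.79 ± 0.19, adjusted p = 0.0287). Slc7a3 was lower and Pycr1 higher. Atf4 itself was at 127 and 172 CPM and at 200.5, 159 and 179 CPM (0.27 ± 0.16, adjusted p = 0.241). Within the high-fat diet, 27 of these 31 genes were lowest in replicate 2. Asns, asparagine synthetase, was at 88.0, 62.9 and 88.3 CPM there and at 106 and 65.7 CPM in chow replicates 1 and 3.

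Genes that mature or edit transfer RNA gave 1 higher and 3 lower of 28 tested (14.9% and 8.78% of all tested genes), with a median of -0.02. The count higher was 0 without any 1 of the high-fat libraries and with the acinar covariate. Of all tested genes, 6.91% to 8.50% were higher without 1 high-fat library and 6.92% with the covariate. With library sizes that left out acinar and insulin genes 0 were higher and 10 lower (4.79% and 28.2% of all tested genes). Ssb, the La protein that binds new transcripts of RNA polymerase III, fell from 55.3 and 54.5 CPM to 34.9, 35.1 and 35.4 CPM (-0.63 ± 0.07, limma adjusted p = 0.00212). Aarsd1, which removes wrongly attached serine from alanine transfer RNA, fell from 14.5 and 13.1 CPM to 7.28, 7.53 and 6.43 CPM (-0.87 ± 0.12, adjusted p = 0.00413). Elac2, which trims transfer RNA at its 3′ end in nucleus and mitochondria, rose from 10.2 and 10.8 CPM to 14.1, 14.7 and 14.7 CPM (0.43 ± 0.10, adjusted p = 0.022). Pop4, a protein of ribonuclease P, was also lower (-0.54 ± 0.16, adjusted p = 0.0491). For these 4 genes the diets did not overlap in any library.

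The genes of mitochondrial transfer RNA charging and translation share Elac2 and Trnt1 with that list. Of 17 tested, 1 was higher (Elac2) and 0 lower by limma (14.9% and 8.78% of all tested genes). At an unadjusted p below 0.05 there were 6 (38.8% of all tested genes). The count higher was 0 without any 1 of the high-fat libraries and with the acinar covariate. Of all tested genes, 6.91% to 8.50% were higher without 1 high-fat library and 6.92% with the covariate. The count lower was 2 with median-ratio scaling and with the trimmed mean of M values (11.1% and 10.9% of all tested genes). It was 4, with 0 higher, when library sizes left out acinar and insulin genes (28.2% lower and 4.79% higher of all tested genes). Trmt10c, a subunit of mitochondrial ribonuclease P, was at 17.5 and 16.3 CPM and at 14.2, 12.97 and 11.999 CPM (-0.36 ± 0.11, adjusted p = 0.0533). Gatc, of the enzyme that makes glutaminyl transfer RNA from the product of Ears2, was at 11.3 and 13.4 CPM and at 9.33, 10.1 and 9.06 CPM (-0.35 ± 0.12, adjusted p = 0.0785). Its partners Qrsl1 and Gatb had adjusted p of 0.459 and 0.904. Gfm2, a mitochondrial ribosome recycling factor, was at 17.8 and 19.96 CPM and at 22.7, 21.5 and 24.8 CPM (0.27 ± 0.10, adjusted p = 0.0949).

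Levels were compared between genes per kb of the transcript with the longest coding sequence in GENCODE M21, in which all 40 genes were found. The cytosolic enzymes had a median of 12.5 CPM per kb in chow and 12.7 CPM per kb on the high-fat diet, and the mitochondrial enzymes 3.27 and 3.35 CPM per kb. Sars was the highest of the 40 genes, at 64.3 ± 6.39 CPM per kb in chow (SD, n = 2) and 62.0 ± 6.91 on the high-fat diet (SD, n = 3), followed by Gars at 44.5 ± 2.09 and 44.6 ± 3.65 and Wars at 33.8 ± 8.04 and 34.7 ± 4.16 CPM per kb. The lowest cytosolic enzymes in chow were Tarsl2 (5.97 ± 0.174), Farsa (6.88 ± 0.137) and Tars (7.57 ± 0.386 CPM per kb). The highest mitochondrial enzymes in chow were Iars2 (9.26 ± 0.202), Rars2 (7.10 ± 0.382) and Fars2 (4.26 ± 1.14 CPM per kb), the last within its spread of Ears2 (4.22 ± 0.561). The lowest were Mars2 (0.467 ± 0.0426), Pars2 (0.858 ± 0.103) and Sars2 (1.34 ± 0.00219 CPM per kb). The Mars2 transcript is annotated with 11294 bases, of which 1758 are coding, and reads may not cover all of it.

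For 12 amino acids with a cytosolic gene named letter-ARS and a mitochondrial gene named letter-ARS2, the levels per kb of the pair were set against each other. The threonine pair was Tars and Tars2, without Tarsl2, the additional cytosolic threonine enzyme. The cytosolic enzyme was the higher in every library for 11 of 12 pairs, per kb of transcript and also per coding length. The exception was isoleucine, where the ratio of Iars to Iars2 was 0.950 and 0.953 in chow and 1.37, 1.13 and 1.36 on the high-fat diet. The excess was largest for serine, where Sars was 51.3 and 44.4 times Sars2 in chow and 35.7, 26.4 and 37.4 times on the high-fat diet. In these 2 of the 12 pairs the ratios did not overlap between the diets, higher on the high-fat diet for isoleucine and lower for serine. In the other 10 they overlapped. Among single genes, the diets did not overlap for 55.4% of all tested genes. No such share was computed for ratios. Ratios within a library do not depend on its scaling. Summed over all genes, the mitochondrial set was 15.8% and 17.2% of the cytosolic set in chow and 15.6%, 18.8% and 16.4% on the high-fat diet.

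**Figure D5:**
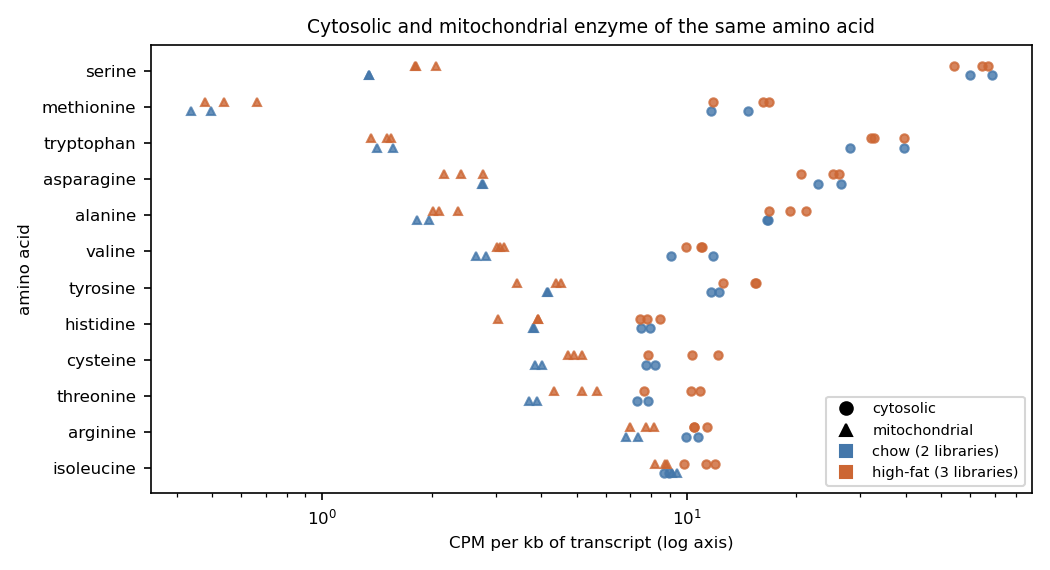
CPM per kb of transcript (log axis) of the cytosolic (circles) and mitochondrial (triangles) enzyme of 12 amino acids, 1 symbol per library in blue for chow (n = 2) and orange for high-fat diet (n = 3). The cytosolic enzyme lies above the mitochondrial one throughout except for isoleucine, where the 2 lie close together, and the gap is widest for serine.

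Some of these genes share sequence or position with others, and the counting is not stated to use strand. By GENCODE M21, 29.4% of the Aimp2 exons overlap Eif2ak1 on the opposite strand, 22.9% of the Iars2 exons Rab3gap2 on the opposite strand and 14.3% of the Aars exons Exosc6 on the same strand. Reads from such partners cannot be told apart here, so the values of these 3 genes are less certain. Of the 31-base words of Iars, 14.7% also occur in other genes, Gm4849 sharing the most. Hars and Hars2, which lie head to head, overlap over 7.97% of the Hars exons. For Aimp1 and Ears2 the overlap with Tbck and Ubfd1 on the opposite strand was 2.91% and 1.73% of the exons.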

How the data were processed

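RNA from isolated islets was sequenced in 6 samples. The authors deposited 1 table of 48321 gene names, and the submitters' processing notes name Partek. Not given in the sources used here were its version, the aligner, the genome build and the way of counting. In all columns of the deposited table the smallest value was 1, and low values had a spacing shared by all genes, so they were read as CPM plus 1 and 1 was subtracted. The spacing gave implied totals of 18.8 to 35.1 M reads. Only 64.6% to 70% of values up to 20 reads were whole within 0.1 reads, so no count model was used. The floor of 3 reads was 0.0856 to 0.16 CPM, for counting error only. The lowest gene of the set had 45 implied reads.

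Diets were compared by limma 3.58.1 (R 4.3.3) in 5 libraries and 16939 genes of mean CPM 0.5 or more, after a log2(CPM + 1) transform, with eBayes set to a mean-variance trend and Benjamini-Hochberg adjustment. Low genes change by more than fold changes on this scale show. The fit was also tried on simulated data with independent normal noise for each gene. That simulation held no differences between whole libraries, so it does not bear on those described above. Alternatives were other scalings (median ratios and the trimmed mean of M values, both computed on CPM in base R, and library size without acinar and insulin genes), other filters, pseudocounts of 2 and 0.5, no trend, sample weights, the acinar markers as a covariate, all 6 columns, other set definitions, and leaving out each library. The genes, lists and tests were chosen with earlier results of these data known. The genes of the family are named, except for values of 1 gene and 1 promoter sequence that are not reported here, with the 4 genes of smallest p from each pathway list. Slc7a3, Pycr1, Atf4, Asns, Qrsl1 and Gatb were named after their values were seen.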

Additional observations from a re-analysis of the deposited data

How the results depend on the processing

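The precision rests on 2 and 3 libraries per diet. Rn7sk differed between the diets in every library, and no setting separates what goes with it from diet. The count of genes lower, 1 as reported, was 2 with median-ratio scaling and 2 with the trimmed mean of M values (Dars being the addition), and 12 with library sizes that left out acinar and insulin genes, where 0 were higher. That scaling took the cytosolic median log2 fold change to -0.35 and the mitochondrial median to -0.20, beside -0.28 for all tested genes. It also divides out the unequal sums of the deposited CPM, and the 2 parts were not separated. With the acinar markers as a covariate 0 genes were higher, the mitochondrial median was 0.068 and the mitochondrial minus cytosolic median -0.027. With all 6 columns, which count the averaged chow column as a sample, 7 were higher and 3 lower. Leaving out each library in turn gave 0 to 1 genes higher and 1 to 1 lower, with medians of -0.048 to 0.062 (cytosolic) and 0.11 to 0.14 (mitochondrial) and a difference of 0.050 to 0.17. Among all tested genes, 1080 higher and 573 lower were called with no filter (39352 tested), 1172 and 761 with the covariate, and 4224 and 2828 with 6 columns. Leaving out a library gave 1167 (without high-fat replicate 2) to 2969 (without chow replicate 3) higher and 682 to 1415 lower, also under the reported counts by more than 1.5 times without chow replicate 1 (1344 and 780) and without high-fat replicate 1 (1441 and 790) or 3 (1222 and 745). Of the 40 genes, 32 changed the sign of their log2 fold change in some setting and 20 were called in none. The values that changed sign were as follows. With median-ratio scaling they were Farsb -0.041, Gars -0.066, Hars -0.035, Lars -0.044, Rars -0.012, Vars -0.032, Wars -0.014 and Eef1e1 -0.0032. With the trimmed mean of M values they were Farsb -0.037, Gars -0.061, Hars -0.031, Lars -0.039, Rars -0.0079, Vars -0.028 and Wars -0.0095. With library sizes without acinar and insulin genes they were Aars -0.20, Cars -0.068, Farsa -0.087, Farsb -0.35, Gars -0.39, Hars -0.34, Iars -0.071, Lars -0.36, Mars -0.22, Rars -0.32, Tars -0.066, Vars -0.35, Wars -0.33, Yars -0.12, Eef1e1 -0.27, Aars2 -0.18, Cars2 -0.059, Mars2 -0.12, Pars2 -0.16, Rars2 -0.27 and Vars2 -0.20. Sample weights gave Gars -0.00072. The acinar covariate gave Eprs 0.067, Nars 0.13, Qars 0.015, Sars 0.085 and Fars2 0.054. Leaving out each library in turn, the ranges that cross 0 were -0.058 to 0.050 for Eprs, -0.059 to 0.057 for Gars, -0.016 to 0.067 for Hars, -0.18 to 0.0066 for Kars, -0.075 to 0.12 for Lars, -0.15 to 0.062 for Nars, -0.16 to 0.046 for Sars, -0.15 to 0.22 for Vars, -0.19 to 0.29 for Wars, -0.17 to 0.11 for Aimp2, -0.10 to 0.21 for Eef1e1, -0.34 to 0.18 for Fars2, -0.13 to 0.040 for Hars2, -0.078 to 0.044 for Wars2 and -0.089 to 0.084 for Yars2. Apart from the scaling itself, which divides all genes of a library by the same factor, the cause was not tested. Taking Tarsl2 and Aimp2 as mitochondrial by their names, or leaving out Kars and Gars, moved no median by more than the spread between libraries. No paired analysis was possible because the labels give no replicate numbers and those used here only follow the order of deposit.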
